A study of Mus musculus with 18 samples.

Results

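The 8 milk protein genes Csn1s1, Csn1s2a, Csn1s2b, Csn2, Csn3, Lalba, Wap and Glycam1 were followed in medullary thymic epithelial cells (mTECs). They were taken by gene symbol, as 8 of the 49585 genes counted in the Aire and Fezf2 libraries and 8 of the 21969 genes counted in the Chd4 libraries, and all 8 were found in each. The first 5 encode caseins and lie side by side on chromosome 5, between 87666208 and 87932665 on GRCm38, a stretch of 266.5 kb. Csn2 is read from the minus strand, and the other caseins from the plus strand. Wap lies on chromosome 11, and Lalba and Glycam1 lie on chromosome 15.

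Messenger RNA of sorted mouse mTECs was sequenced in 18 libraries, 3 for each of 6 groups. The Aire KO, Fezf2 KO and both WT groups were of the C57BL/6 strain, and each of these knockouts had a WT group of its own, called WT for Aire and WT for Fezf2 here. The labels give the second knockout as Fezf2KO, while the headers of the count table write Fezf2cKO, a conditional knockout, with no Cre driver named in either. The Chd4 cKO mice carried Chd4 flox/flox with Foxn1-Cre, and the Chd4 control mice carried Chd4 flox/flox alone, both on a C57BL/6x129P2 background. Foxn1 is expressed throughout the thymic epithelium, so that Cre is not restricted to mTECs. The labels used here give no deleted exons, ages or sort gates. They also do not say whether libraries came from separate animals, so each p-value reflects library-to-library spread, which may be technical.

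Caseins are the main proteins of milk. In the mammary gland their genes are switched on by prolactin, whose receptor acts through JAK2 and the transcription factor STAT5. Medullary thymic epithelial cells transcribe many genes that otherwise belong to single organs, and so show developing T cells the body's own proteins. Aire and Fezf2 are transcriptional regulators required for separate sets of such genes, and Chd4 is the ATPase of the NuRD chromatin remodelling complex.

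The 250 bases upstream of the RefSeq start (GRCm38.p6, each read 5′ to 3′ on the gene's own strand) are shown for the 4 genes that the comparisons turn on, since one of them moved against the other 3 in the libraries labelled Aire KO. They are Csn2 at chr5:87699426-87699675 (minus strand), Csn1s1 at chr5:87665958-87666207 (plus strand), Csn1s2a at chr5:87774200-87774449 (plus strand) and Wap at chr11:6638650-6638899 (minus strand). Capitals mark TTCNNNGAA, the gamma-interferon activation site that STAT5 proteins bind, searched on both strands.
Csn2: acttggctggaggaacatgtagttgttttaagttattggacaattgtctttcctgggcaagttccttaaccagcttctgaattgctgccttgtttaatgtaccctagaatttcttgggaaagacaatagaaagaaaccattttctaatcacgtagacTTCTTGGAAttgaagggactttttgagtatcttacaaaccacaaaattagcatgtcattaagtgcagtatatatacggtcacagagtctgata
Csn1s1: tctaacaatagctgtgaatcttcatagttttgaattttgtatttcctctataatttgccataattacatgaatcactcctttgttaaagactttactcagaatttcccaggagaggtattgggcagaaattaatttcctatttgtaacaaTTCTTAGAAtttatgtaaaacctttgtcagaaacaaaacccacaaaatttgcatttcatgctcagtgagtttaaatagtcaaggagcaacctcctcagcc
Csn1s2a: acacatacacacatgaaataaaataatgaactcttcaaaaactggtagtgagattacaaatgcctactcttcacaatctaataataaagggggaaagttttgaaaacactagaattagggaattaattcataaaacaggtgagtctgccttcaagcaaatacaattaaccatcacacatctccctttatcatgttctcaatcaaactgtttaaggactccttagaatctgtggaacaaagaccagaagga
Wap: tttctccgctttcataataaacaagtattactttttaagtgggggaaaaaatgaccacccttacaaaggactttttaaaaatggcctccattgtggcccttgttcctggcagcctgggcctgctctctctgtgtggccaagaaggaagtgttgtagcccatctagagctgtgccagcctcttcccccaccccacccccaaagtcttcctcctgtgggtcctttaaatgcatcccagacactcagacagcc

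In windows running from 250 bases before to 50 bases after the RefSeq start, TTCNNNGAA was found at position -93 of Csn2, -100 of Csn1s1 and 21 of Csn1s2a, the last outside the stretch printed. These positions depend on the start used. GENCODE and the counted gene positions begin Csn1s2a at 87774567, and from there its match lies upstream. They place the start of Csn2 at 87699630, inside its printed stretch, and from there its match lies downstream. It was also found at -145 of Glycam1, and was not found in the windows of Wap and Lalba. Of the 32851 RefSeq windows of this length, 8.3% held it. TTGCNNAA, a C/EBP motif searched on both strands (10.8% of windows), and TATAAA on the gene's strand (8.3% of windows) matched none of the 6 windows. The 6 windows held 0 to 3 CG dinucleotides each, against a median of 7 over all windows. A match here describes letters and is no evidence of binding.

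The libraries held 3571570 to 17220157 exon reads, the largest being library B of the Chd4 cKO group (libraries are named A to C within a group). Fezf2 reads averaged 13.6 ± 8.46 CPM (reads relative to the TMM-scaled library size) in Fezf2 KO and 652 ± 82.5 CPM in WT for Fezf2 libraries, and Chd4 reads 27.4 ± 2.80 CPM in Chd4 cKO and 60.3 ± 5.69 CPM in Chd4 control libraries (SD, n = 3 each). Aire reads averaged 3941 ± 182 CPM in Aire KO and 2018 ± 255 CPM in WT for Aire libraries (SD, n = 3 each). Since the deleted part of Aire is not known here, reads over the whole gene do not check that label, and the group is spoken of as labelled. A list of 9 mTEC markers, among them Epcam, H2-Aa, Cd80, Aire and Fezf2, summed to between 11010 and 19620 CPM in every library. As Aire and Fezf2 are in the list, its sum is not independent of the genes deleted. No marker of any list was at 0 in all libraries of a comparison. The Chd4 libraries were run and annotated separately from the others, so levels are not set against each other across the 2 sets.

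Csn2, the beta-casein gene, was among the most abundant transcripts of every group. It took 0.243% to 0.288% of all exon reads in Aire KO and 0.167% to 0.193% in WT for Aire libraries. The share was 0.0802% to 0.116% in Fezf2 KO and 0.117% to 0.135% in WT for Fezf2 libraries. In the separate Chd4 set it was 0.0472% to 0.0608% in Chd4 cKO and 0.0899% to 0.106% in Chd4 control libraries. Ordered by CPM per kilobase of the table's exon length, Csn2 stood at rank 76 to 98 among all genes in Aire KO libraries, at 123 to 152 in WT for Aire, at 255 to 396 in Fezf2 KO and at 195 to 355 in WT for Fezf2. Its rank was 108 to 156 in Chd4 cKO and 56 to 63 in Chd4 control libraries. The exon length of Csn2 was 5655 bases for the Aire and Fezf2 libraries and 1346 for the Chd4 set. These ranks therefore do not compare across the sets. By reads alone, Csn2 ranked at 21 to 29 in Aire KO and 32 to 40 in WT for Aire libraries. The read ranks were 61 to 101 in Fezf2 KO and 44 to 63 in WT for Fezf2 libraries. In the Chd4 set they were 139 to 208 in Chd4 cKO and 58 to 77 in Chd4 control libraries.

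The other caseins were far below it in every group. Per kilobase of the principal transcript, Csn2 averaged 2083 ± 178 CPM in Aire KO and 1302 ± 100 CPM in WT for Aire libraries (SD, n = 3 each). Csn1s2a, an alpha-s2-like casein gene and the next most abundant of the family in WT cells, averaged 0.413 ± 0.136 CPM per kilobase in Aire KO and 24.7 ± 6.61 CPM per kilobase in WT for Aire libraries (SD, n = 3 each). In the Chd4 set the corresponding levels were 408 ± 51.4 CPM per kilobase in Chd4 cKO and 738 ± 64.1 CPM per kilobase in Chd4 control libraries for Csn2, and 14.2 ± 3.14 CPM per kilobase in Chd4 cKO and 39.4 ± 5.73 CPM per kilobase in Chd4 control libraries for Csn1s2a (SD, n = 3 each). Lalba was the least covered member, with at most 12 reads summed over the 3 libraries of any group.

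**Figure D1:**
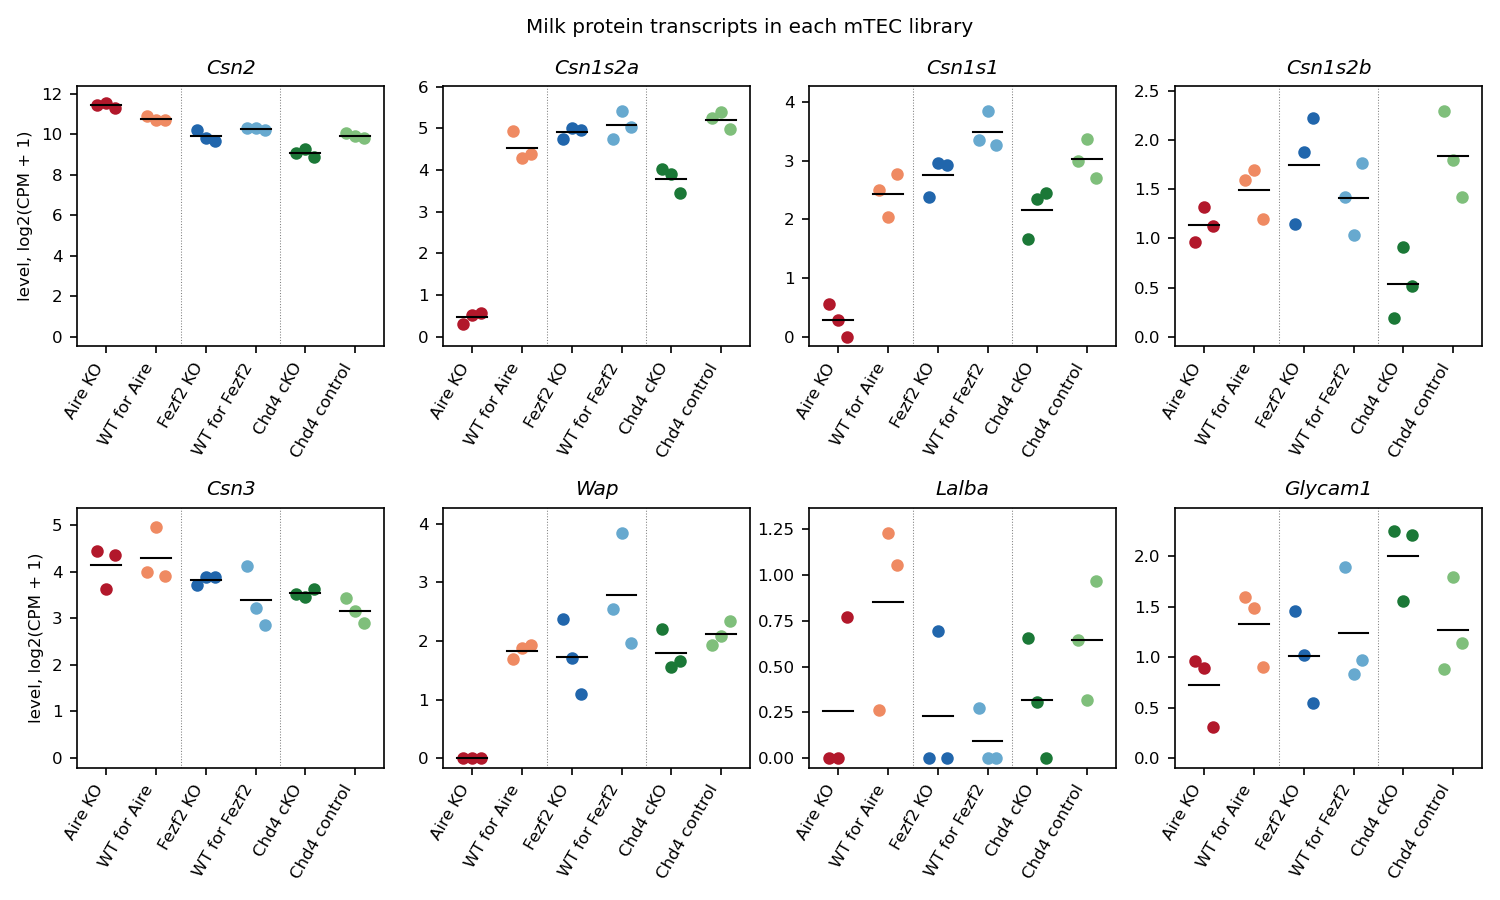
Level of each milk protein gene in each library, as log2(CPM + 1), with 3 points per group and a line at their mean. Each knockout stands left of its own control, the vertical scale differs between genes, and levels of the Chd4 set cannot be compared with those of the other 4 groups. Csn2 is higher in Aire KO than in WT for Aire libraries, while Csn1s2a, Csn1s1 and Wap are near or at 0 in Aire KO libraries.

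In the libraries labelled Aire KO the caseins moved apart from one another. Csn1s1, Csn1s2a and Wap were nearly or wholly absent there, whereas Csn2, which lies between Csn1s1 and Csn1s2a, was higher. By edgeR's quasi-likelihood test with Benjamini-Hochberg adjustment over all 14949 genes tested (called below 0.05), 5 of the 8 members were tested, of which 3 were lower and 1 was higher. Over all genes tested, 9.37% were called lower and 5.73% higher, or 15.1% together, and the libraries of the groups did not overlap for 17.1% of genes that were lower and 15% that were higher in Aire KO. The 3 lower members passed the filter on low counts through the WT libraries alone, so that their number is given without a reading.

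Csn1s2a had 0.238, 0.429 and 0.473 CPM in the 3 Aire KO libraries, against 29.7, 18.4 and 20.1 CPM in the 3 WT for Aire libraries. All Aire KO libraries lay far below all WT libraries, with 5 reads in Aire KO against 322 in WT for Aire in all. The fold change was 55.6 (log2 fold change -5.80, SE 0.44, adjusted p = 3.51e-06 by edgeR).

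Csn1s1, the alpha-s1-casein gene, had 0.476, 0.214 and 0 CPM in Aire KO libraries, against 4.64, 3.14 and 5.83 CPM in WT for Aire libraries. The groups did not overlap, and the Aire KO values rest on 3 reads, against 64 in WT for Aire. The ratio of the depth-scaled sums was 19.9 (95% counting interval 6.51 to 99.0), lower in Aire KO, with an adjusted p of 0.00215 by edgeR. Such intervals cover counting error only, since reads from amplified libraries are not independent molecules.

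Wap, the whey acidic protein gene of rodent milk, had 0 reads in all 3 Aire KO libraries, against 2.22, 2.69 and 2.81 CPM in WT for Aire libraries (36 reads in all). Taking 3 reads over the group as the most that a count of 0 allows, it was at least 11.2-fold lower in Aire KO (adjusted p = 0.00278 by edgeR).

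Csn2 had 2776, 3000 and 2528 CPM in Aire KO libraries, against 1883, 1641 and 1666 CPM in WT for Aire libraries. Every Aire KO library lay above every WT library. The level was 1.60-fold higher in Aire KO (log2 fold change 0.68, SE 0.11, adjusted p = 9.26e-04 by edgeR). The WT groups differed in Csn2 by a like amount without a call: it had 1284, 1287 and 1181 CPM in WT for Fezf2, against 1964, 1716 and 1739 CPM in WT for Aire when those 6 were scaled together (log2 fold change -0.53, SE 0.18, adjusted p = 0.273 by edgeR). The WT libraries did not overlap there either.

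Csn3, which encodes kappa-casein, the casein that caps and stabilises the micelle, had 20.7, 11.4 and 19.4 CPM in Aire KO libraries, against 14.9, 30.3 and 14.0 CPM in WT for Aire libraries. The groups overlapped, and the log2 fold change of -0.20 (SE 0.33, adjusted p = 0.753 by edgeR) came to 0.25 without library B of WT for Aire and to 0.04 without library B of Aire KO. The locus of Csn3 is overlapped by 1700066N21Rik, which had at most 1 read in a group of the Aire and Fezf2 libraries.

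The other 3 members were too low to be tested. Csn1s2b, the second alpha-s2-like casein gene, had 16 reads in Aire KO and 26 in WT for Aire libraries. Glycam1, a mucin-like glycoprotein of milk and of lymph node venules, had 9 reads in Aire KO and 22 in WT for Aire libraries. Lalba, whose product alpha-lactalbumin turns galactosyltransferase into lactose synthase, had 3 reads in Aire KO and 12 in WT for Aire libraries (ratio 3.73, 95% counting interval 1.01 to 20.6). In each of these 3 genes the libraries of the 2 groups overlapped.

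Genes used as markers of other cells moved in the same libraries. The 3 neutrophil markers were all lower and summed to 30.5 to 77.6 CPM in Aire KO, against 337 to 453 CPM in WT for Aire libraries. The mTEC markers summed to 18390 to 19620 CPM in Aire KO, against 13710 to 15310 CPM in WT for Aire libraries, with 2 lower and 4 higher of 9. Aire itself and Fezf2 were among the higher ones. They averaged 3941 and 874 CPM in Aire KO, against 2018 and 626 CPM in WT for Aire libraries. The 2 endothelial markers summed to 20.2 to 27.6 CPM in Aire KO, against 8.28 to 9.07 CPM in WT for Aire libraries, and the 2 fibroblast markers to 1.72 to 5 CPM in Aire KO, against 13.2 to 19.9 CPM in WT for Aire libraries. The 3 dendritic cell markers summed to 5.24 to 8.51 CPM in Aire KO, against 9.08 to 13.8 CPM in WT for Aire libraries. Of these 3, only 1 was tested, and 0 were called by edgeR. The sums of cortical epithelial, thymocyte and B cell markers overlapped. The part of these markers in the casein differences was not tested. As mTECs transcribe many genes of single organs, reads of such markers may stem from mTECs or from other cells. Bulk libraries do not tell these origins apart. In bulk libraries, fewer cells that transcribe a gene and less RNA per cell cannot be told apart.

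In Fezf2 KO libraries no milk protein gene passed the threshold. Of the 6 members tested, 0 were called by edgeR and 0 by DESeq2, against 4.87% of all 15695 genes tested by edgeR (2.4% lower and 2.48% higher). At an unadjusted p under 0.05 there were 0 by edgeR and 1, Wap, by DESeq2.

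Csn1s1 had 4.19, 6.79 and 6.65 CPM in Fezf2 KO libraries, against 9.22, 13.4 and 8.67 CPM in WT for Fezf2 libraries. It was the only member tested whose libraries did not overlap between these groups, a state found in 13.4% of all genes tested for lower values and 14.2% for higher ones (log2 fold change -0.83, SE 0.37, adjusted p = 0.264 by edgeR).

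Csn2 had 1201, 910 and 805 CPM in Fezf2 KO libraries, against 1275, 1276 and 1170 CPM in WT for Fezf2 libraries. Library A of the knockout lay within the WT range and the other 2 lay below it (log2 fold change -0.35, SE 0.20, adjusted p = 0.385 by edgeR). Csn1s2a, which was nearly absent from Aire KO libraries, had 25.7, 31.5 and 30.1 CPM in Fezf2 KO libraries, against 25.99, 41.9 and 32.0 CPM in WT for Fezf2 libraries. These overlapped (log2 fold change -0.19, SE 0.24, adjusted p = 0.705 by edgeR).

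Wap had 4.19, 2.26 and 1.15 CPM in Fezf2 KO libraries, against 4.82, 13.4 and 2.89 CPM in WT for Fezf2 libraries. Library B of WT for Fezf2 was the highest of the 6, and the groups overlapped (log2 fold change -1.43, SE 0.67, adjusted p = 0.278 by edgeR). Without that library the log2 fold change was -0.58. Csn1s2b and Csn3 overlapped between the groups, with log2 fold changes of 0.53 (adjusted p = 0.688) and 0.34 (adjusted p = 0.668). Lalba and Glycam1 were not tested, with 3 and 17 reads in Fezf2 KO libraries, against 1 and 20 in WT for Fezf2 libraries. Of the 7 thymocyte markers 4 were lower, and these 7 summed to 141 to 177 CPM in Fezf2 KO, against 279 to 522 CPM in WT for Fezf2 libraries. The 4 B cell markers, 1 of them called lower, summed to 43.2 to 50.8 CPM in Fezf2 KO, against 70.8 to 172.9 CPM in WT for Fezf2 libraries. The 3 dendritic cell markers summed to 9.67 to 14.2 CPM in Fezf2 KO, against 20.2 to 26.6 CPM in WT for Fezf2 libraries. Of these 3, edgeR called 0, and DESeq2 called 1 lower. Epithelial sums were higher without overlap. The 9 mTEC markers summed to 15400 to 16990 CPM in Fezf2 KO, against 11010 to 14710 CPM in WT for Fezf2 libraries. By edgeR 1 of these 9 was called lower and 1 higher. The 4 cortical markers summed to 1266 to 1943 CPM in Fezf2 KO, against 761 to 1099 CPM in WT for Fezf2 libraries. Of these 4, edgeR called 0, and their median log2 fold change was 0.07. The sums of endothelial, fibroblast and neutrophil markers overlapped. The part of these markers in the casein values was not tested.

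In Chd4 cKO libraries the 2 most abundant caseins were lower together. Of the 6 members tested, Csn2 and Csn1s2a were called lower by edgeR and by DESeq2, and 0 were higher by either tool, also at an unadjusted p under 0.05. By the same edgeR test, 14.3% of all 15182 genes tested were lower and 14.3% higher, or 28.6% together, and the libraries of the groups did not overlap for 22.1% of genes in either direction.

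Csn2 had 537, 613 and 477 CPM in Chd4 cKO libraries, against 1069, 974 and 899 CPM in Chd4 control libraries. All cKO libraries lay below all controls, and the level was 1.81-fold lower in Chd4 cKO (log2 fold change -0.85, SE 0.11, adjusted p = 2.69e-04 by edgeR). Csn1s2a had 15.4, 14.1 and 9.85 CPM in Chd4 cKO libraries, against 37.1, 41.1 and 30.6 CPM in Chd4 control libraries. Here too the groups were apart, and the level was 2.72-fold lower in Chd4 cKO (log2 fold change -1.44, SE 0.19, adjusted p = 4.22e-04 by edgeR).

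Csn1s1 had 2.16, 4.10 and 4.50 CPM in Chd4 cKO libraries, against 7.03, 9.40 and 5.50 CPM in Chd4 control libraries. The groups did not overlap, and the test missed the threshold (log2 fold change -1.02, SE 0.37, adjusted p = 0.0634 by edgeR). Csn1s2b had 0.144, 0.879 and 0.428 CPM in Chd4 cKO libraries, against 3.94, 2.47 and 1.68 CPM in Chd4 control libraries. Its libraries were apart as well, but its counts were below the filter. Without a filter it had a log2 fold change of -2.20 and an adjusted p of 0.0367 by edgeR, and the authors' deposited table gave it a q-value of 0.0329.

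Csn3 had 10.5, 10.02 and 11.4 CPM in Chd4 cKO libraries, against 9.85, 7.92 and 6.46 CPM in Chd4 control libraries. Each cKO library lay above each control, by a margin that did not pass (log2 fold change 0.39, SE 0.24, adjusted p = 0.257 by edgeR). Wap had 3.59, 1.93 and 2.14 CPM in Chd4 cKO libraries, against 2.81, 3.22 and 4.07 CPM in Chd4 control libraries, and these overlapped (log2 fold change -0.42, adjusted p = 0.483). Glycam1 had 3.74, 1.93 and 3.64 CPM in Chd4 cKO libraries, against 0.844, 2.47 and 1.20 CPM in Chd4 control libraries, overlapping too (log2 fold change 0.97, SE 0.52, adjusted p = 0.194 by edgeR). Lalba was not tested, with 8 reads in Chd4 cKO and 7 in Chd4 control libraries.

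Aire transcript was itself lower in Chd4 cKO, at 787 ± 34.8 CPM, against 1033 ± 14.5 CPM in Chd4 control libraries (SD, n = 3 each, log2 fold change -0.39, adjusted p = 0.00294 by edgeR). Its part in the casein values was not tested. The mTEC marker sum was 12040 to 13290 CPM in Chd4 cKO and 12010 to 12340 CPM in Chd4 control libraries. The thymocyte markers summed to 68.2 to 90.4 CPM in Chd4 cKO and 67.5 to 81.1 CPM in Chd4 control libraries. Like these, the B cell, cortical and endothelial sums overlapped. The 3 neutrophil markers, 2 called lower and 1 higher, summed to 326 to 469.6 CPM in Chd4 cKO, against 477 to 592 CPM in Chd4 control libraries. The 3 dendritic cell markers, 1 called lower, summed to 8.78 to 12.5 CPM in Chd4 cKO, against 17.0 to 19.7 CPM in Chd4 control libraries. The 2 fibroblast markers, 1 called lower, summed to 40.3 to 48.8 CPM in Chd4 cKO, against 49.5 to 68.0 CPM in Chd4 control libraries. The part of these markers in the casein values was not tested.

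**Figure D2:**
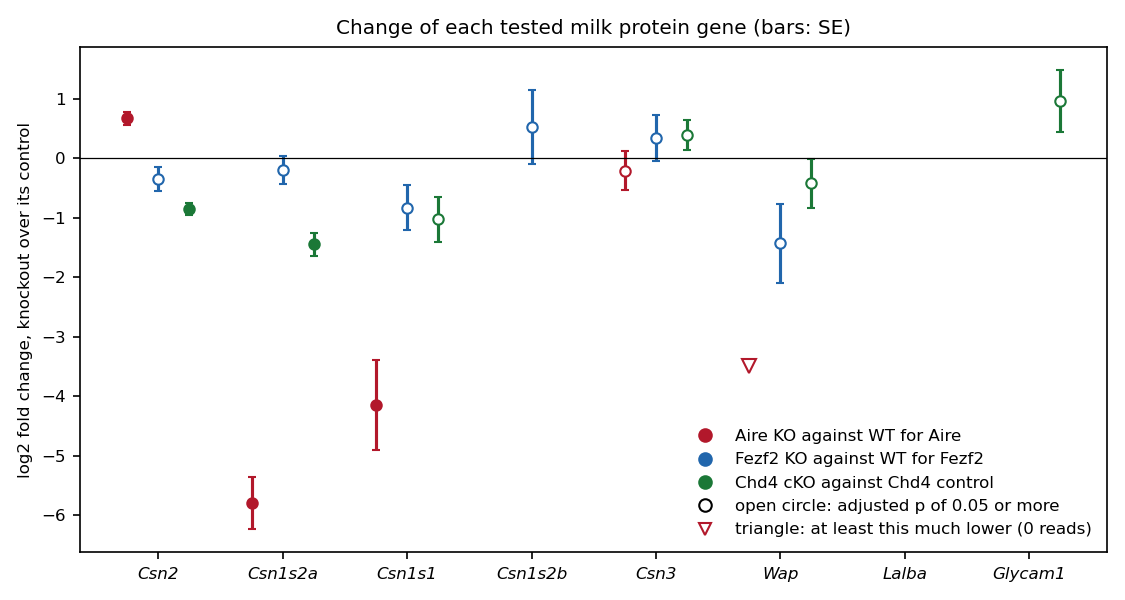
Log2 fold change of each member tested, knockout over its own control, with bars for 1 standard error from edgeR. Filled circles passed the adjusted p threshold of 0.05 and open circles did not, and the open triangle stands at the least change that 0 reads of Wap in Aire KO libraries allow. Lalba was tested in no comparison. Csn2 lies above 0 for Aire KO and below it for Chd4 cKO, and Csn1s2a lies lowest for Aire KO.

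The effects on single members were then set against each other in 1 edgeR fit over all 18 libraries and 16169 genes. In the Fezf2 effect minus the Aire effect, 4 of the 7 members tested passed, 1 below 0 and 3 above it. Of all genes 16.9% passed, 5.51% below 0 and 11.4% above. In the Chd4 effect minus the Aire effect 4 passed, again 1 below 0 and 3 above it, where 16.5% of all genes passed, 5.11% below 0 and 11.4% above. In the Chd4 effect minus the Fezf2 effect 2 passed, both below 0, where 14.9% of all genes passed, 6.87% below 0 and 8.03% above. The strain, the run and the annotation of the Chd4 set differ from those of the others, and cannot be told apart from the gene deleted.

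Csn2 differed by -1.05 (SE 0.21, adjusted p = 0.00120) between the Fezf2 and the Aire effect and by -1.52 (SE 0.21, adjusted p = 3.83e-05) between the Chd4 and the Aire effect, on the log2 scale. Between the Chd4 and the Fezf2 effect it differed by -0.46 (SE 0.21, adjusted p = 0.145). The change of Csn2 in Aire KO thus stood apart from both others, and those 2 were not told apart. Csn1s2a differed in all 3 contrasts, by 5.60 (SE 0.48, adjusted p = 1.50e-07), 4.38 (SE 0.50, adjusted p = 4.30e-06) and -1.22 (SE 0.32, adjusted p = 0.0149), in the order just used.

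Csn1s1 differed from the Aire effect by 3.33 (adjusted p = 0.00590) in the Fezf2 effect and by 3.18 (adjusted p = 0.00936) in the Chd4 effect. Wap passed both of these contrasts as well (adjusted p = 0.0252 and 0.00704), but with 0 reads in Aire KO its fitted size depends on the prior count. The first of these calls was lost without any 1 Aire KO library or without Fezf2 KO A (adjusted p 0.0551 to 0.0608 by edgeR). Csn1s2b passed only between the Chd4 and the Fezf2 effect (log2 difference -2.74, SE 0.90, adjusted p = 0.0443 by edgeR). That call was lost without a filter on low counts (adjusted p = 0.0677). With 1 library left out in turn, the adjusted p by edgeR ran from 0.0306 to 0.125. It stayed below 0.05 without Aire KO A or C, WT for Fezf2 C, Fezf2 KO A, Chd4 cKO B or Chd4 control C, and the call was lost without any other library.

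Between the WT groups none of the 5 members tested was called by edgeR or DESeq2, where 0.128% of all 15656 genes passed edgeR's threshold, 0.0319% lower and 0.0958% higher. At an unadjusted p under 0.05 there were 4 by either tool, 2 in each direction. Groups that did not overlap were found for 10% of genes lower and 10.4% higher in WT for Fezf2. Csn1s1 had 9.29, 13.5 and 8.75 CPM in WT for Fezf2 libraries, against 4.84, 3.29 and 6.08 CPM in WT for Aire libraries, without overlap (log2 fold change 1.14, SE 0.39, adjusted p = 0.286 by edgeR). Csn3 and Wap had log2 fold changes of -0.97 (adjusted p = 0.412) and 1.38 (adjusted p = 0.404).

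Around the casein genes, the enamel genes Amtn and Ambn were lower in Aire KO libraries. They belong, like the caseins, to the secretory calcium-binding phosphoprotein family. Amtn (amelotin, an enamel protein), which lies beyond Csn3, had 0, 0.214 and 0 CPM in Aire KO libraries, against 9.49, 4.26 and 7.77 CPM in WT for Aire libraries. That is 1 read in Aire KO against 102 in WT for Aire, a ratio of 95.1 (95% counting interval 16.7 to 3793, adjusted p = 2.80e-04 by edgeR). Ambn (ameloblastin) had 0 reads in Aire KO libraries, against 60 in WT for Aire, and was at least 18.7-fold lower (adjusted p = 8.92e-04 by edgeR).

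Other genes of this family and region were below the filter and were not tested. Enam (enamelin) had 0 reads in Aire KO against 16 in WT for Aire libraries, which is at least 4.97-fold lower. Smr3a, a salivary gene, had 0 against 30, at least 9.33-fold lower in Aire KO. Odam, an ameloblast-associated gene between Csn1s2b and Csn3, had 3 reads in Aire KO against 26 in WT for Aire libraries (ratio 8.08, 95% counting interval 2.48 to 41.7).

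Counting every gene within 1000 kb of the casein genes other than the members, 17 were tested in the Aire comparison, of which 4 were lower and 0 higher by edgeR, against 9.37% lower and 5.73% higher over all genes. Amtn, Ambn and Sult1e1 passed the filter only because of the WT libraries, so that nothing is read from this number. DESeq2 gave the same counts, and at an unadjusted p under 0.05 there were 7 lower and 1 higher by edgeR. The median log2 fold change of the 17 was -0.50, against 0.00 over all genes tested. Besides Amtn and Ambn, the lower ones were on the other side of the cluster. The first was Sult1e1, the oestrogen sulfotransferase gene and the nearest tested neighbour of Csn1s1 (log2 fold change -1.93, SE 0.45, adjusted p = 0.0110 by edgeR). The second was Ugt2b34, a UDP-glucuronosyltransferase gene (log2 fold change -1.93, SE 0.35, adjusted p = 0.00204 by edgeR).

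Between the caseins themselves, BC037156 beside Csn3 had 203 reads in Aire KO and 308 in WT for Aire libraries (log2 fold change -0.50, adjusted p = 0.218). Prr27, Gm42794 and 1700066N21Rik had at most 6 reads in any group.

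In the Fezf2 comparison 21 such neighbours were tested, of which 0 were lower and 1 was higher by edgeR, against 2.4% and 2.48% over all genes (0 and 3 by DESeq2, 2 and 3 by edgeR at an unadjusted p under 0.05), with a median log2 fold change of 0.05 against -0.03 over all genes tested. The one called by edgeR was Tmprss11b, a serine protease gene at the far edge of the window (log2 fold change 1.90, SE 0.45, adjusted p = 0.0414 by edgeR). Amtn had 102 reads in Fezf2 KO and 144 in WT for Fezf2 libraries, and Ambn 97 reads in Fezf2 KO and 76 in WT for Fezf2 libraries. Neither passed (adjusted p = 0.334 and 0.956). Smr3a, the nearest tested gene after Csn3 there, did not pass either (log2 fold change 0.18, adjusted p = 0.909).

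In the Chd4 comparison 19 neighbours were tested, of which 5 were lower and 2 higher by edgeR (14.3% in each direction over all genes). Their median log2 fold change was -0.44, against 0.00 over all genes tested. Sult1b1, among the lower ones, passed the filter on low counts through the Chd4 control libraries alone, so that nothing is read from these numbers. The 3 sulfotransferase genes just before Csn1s1 were each called lower. Sult1b1 had 0.431, 0.410 and 1.29 CPM in Chd4 cKO libraries, against 5.63, 5.94 and 3.83 CPM in Chd4 control libraries (log2 fold change -3.04, SE 0.52, adjusted p = 0.00189 by edgeR). Sult1d1 and Sult1e1 had log2 fold changes of -2.31 (adjusted p = 5.30e-04) and -1.57 (adjusted p = 0.0154). In Aire KO libraries Sult1b1 and Sult1d1 did not pass (log2 fold changes -1.13 and -0.74, adjusted p = 0.167 and 0.278).

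Amtn was lower in Chd4 cKO too, with 4.60, 2.99 and 2.36 CPM, against 13.5, 8.66 and 13.6 CPM in Chd4 control libraries (log2 fold change -1.83, SE 0.33, adjusted p = 0.00262 by edgeR). Jchain, the joining chain of secreted immunoglobulins, was lower as well (log2 fold change -2.16, adjusted p = 0.00396). The summed B cell markers lay at 17.98 to 23.0 CPM in Chd4 cKO and 17.5 to 23.3 CPM in Chd4 control libraries. Higher in Chd4 cKO were Ugt2b34 (log2 fold change 0.56, adjusted p = 0.0334), which was lower in Aire KO, and Rufy3 (log2 fold change 0.49, adjusted p = 0.00547). Smr3a and Ambn had log2 fold changes of -1.05 (adjusted p = 0.0728) and -0.94 (adjusted p = 0.155).

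**Figure D3:**
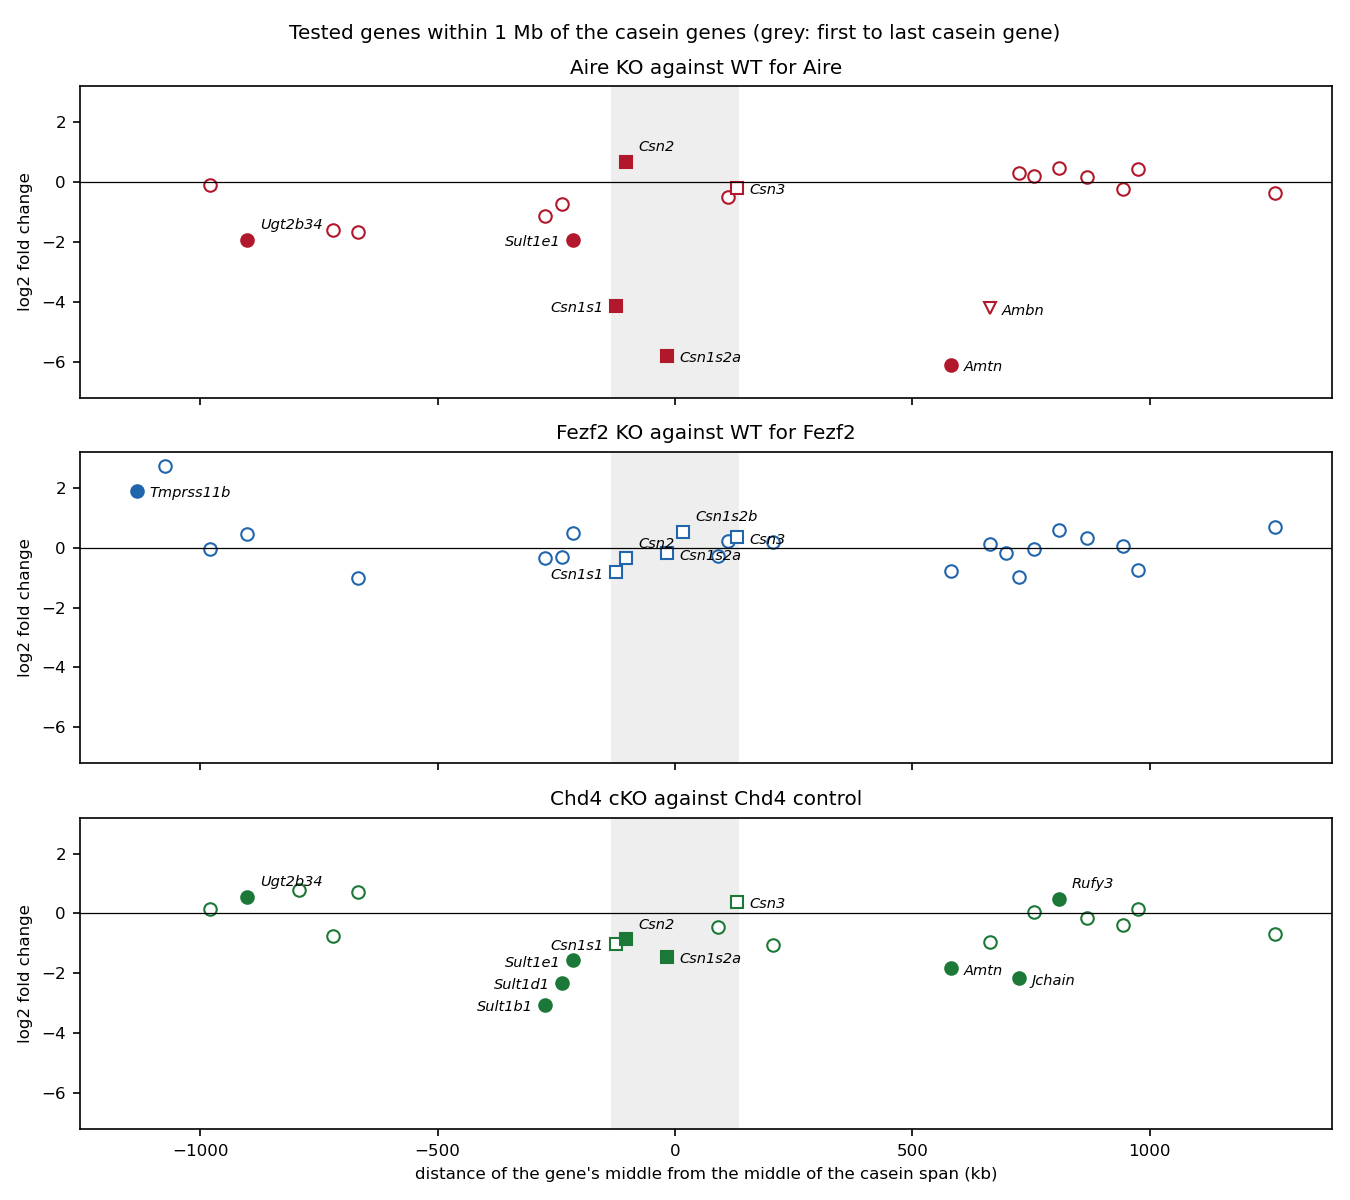
Log2 fold change of every tested gene within 1 Mb of the casein genes, by the distance of its middle from the middle of the casein span in kb. Squares are caseins, circles other genes, filled symbols passed an adjusted p of 0.05, and the triangle is the least change that 0 reads of Ambn allow. Sult1e1, Csn1s1, Csn1s2a, Amtn and Ambn lie low for Aire KO with Csn2 above 0 among them. For Fezf2 KO the one filled symbol, Tmprss11b, stands at the far left, and open symbols such as Csn1s1 (-0.83) lie away from 0 as well.

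Within 250 kb of the members outside the cluster, 26 genes were tested in the Aire comparison, with 2 lower and 2 higher, against 9.37% and 5.73% over all genes. In the Chd4 comparison 24 were tested, with 1 lower and 3 higher, against 14.3% in each direction. Beside Glycam1, 2 of 7 tested genes, Mucl1 and Gtsf1, were lower in Aire KO. They passed the filter on low counts through the WT libraries alone, so that nothing is read from these numbers. Mucl1, a mucin-like gene, had 17 reads in Aire KO and 211 in WT for Aire libraries (log2 fold change -3.50, SE 0.42, adjusted p = 1.04e-04 by edgeR). Gtsf1, a germline gene, was lower in Aire KO (log2 fold change -2.42, adjusted p = 0.0190) and in Chd4 cKO (log2 fold change -1.82, adjusted p = 0.0198), and Zfp385a was higher in Chd4 cKO (log2 fold change 0.71, adjusted p = 0.0151). Beside Wap, Zmiz2 was higher in Aire KO and in Chd4 cKO (log2 fold changes 0.46 and 0.36, adjusted p = 0.0130 and 0.00917), and Nacad was higher in Chd4 cKO (log2 fold change 1.03, adjusted p = 0.0423). Beside Lalba, Zfp641 was higher in Aire KO (log2 fold change 0.71, adjusted p = 0.0262). In the Fezf2 comparison edgeR called 0 of the 27 tested neighbours of these 3 genes, against 1 by DESeq2 and 4 by edgeR at an unadjusted p under 0.05, all lower.

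The 3 lists that follow can be read against the shares of all genes given above and against medians over all genes of 0.00, -0.03 and 0.00 for Aire KO, Fezf2 KO and Chd4 cKO. Of 20 genes that control milk protein transcription in the mammary gland, 15 were tested in the Aire comparison, with 1 lower, 2 higher and a median log2 fold change of 0.11. Stat5a and Stat5b, the factors that carry the prolactin signal, were higher in Aire KO (log2 fold changes 0.38 and 0.42, adjusted p = 0.0289 and 0.0285), and Socs2, a feedback inhibitor of this pathway, was lower (log2 fold change -0.81, adjusted p = 0.0249). Prlr, the prolactin receptor gene, had 26.7, 43.9 and 21.8 CPM in Aire KO libraries, against 24.4, 15.7 and 15.3 CPM in WT for Aire libraries, which overlapped (adjusted p = 0.100). In the Fezf2 comparison 17 were tested, with a median of -0.21. By edgeR 0 were lower and 1 was higher, the oestrogen receptor gene Esr1 (log2 fold change 1.97, adjusted p = 0.0133). DESeq2 called 1 lower, and edgeR gave 2 lower at an unadjusted p under 0.05.

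In the Chd4 comparison 18 of these genes were tested, with 1 lower, 6 higher and a median of 0.23. Prlr was the lower one, at 6.29 ± 1.19 CPM in Chd4 cKO and 19.6 ± 3.59 CPM in Chd4 control libraries (SD, n = 3 each, log2 fold change -1.61, adjusted p = 6.97e-04 by edgeR). Ghr, the growth hormone receptor gene, was the most clearly higher (log2 fold change 1.36, adjusted p = 2.28e-04), followed by the nuclear factor genes Nfic and Nfib (log2 fold changes 0.93 and 1.23) and the C/EBP gene Cebpb (log2 fold change 0.97, adjusted p = 0.00167). Stat5a and the progesterone receptor gene Pgr were also higher (log2 fold changes 0.49 and 1.72, adjusted p = 0.00261 and 0.00475).

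Of 30 other genes of milk and mammary secretion, 25 were tested in the Aire comparison, with 13 lower, 1 higher and a median log2 fold change of -0.87. Members such as Cel passed the filter through the WT libraries alone, so that nothing is read from these numbers. Cel, the bile salt-stimulated lipase gene, had 0 reads in Aire KO libraries and was at least 97.3-fold lower than in WT for Aire libraries. Pigr, the polymeric immunoglobulin receptor gene, had a log2 fold change of -1.57, Saa3, a serum amyloid gene, of -2.46, and Muc15, a mucin gene of the milk fat globule membrane, of -2.95. Parm1 was the one that was higher (log2 fold change 0.44, adjusted p = 0.0125). Many of these genes are also expressed by other epithelia.

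In the Fezf2 comparison 28 of them were tested, with 4 lower, 1 higher and a median of -0.23. The lower ones were Saa3 (log2 fold change -3.55), the transferrin gene Trf (-1.71), Muc1 (-1.31) and the lipid droplet gene Plin2 (-1.10), and Ltf, the lactoferrin gene, was higher (log2 fold change 1.69, adjusted p = 0.0483). In the Chd4 comparison 28 were tested, with 11 lower, 5 higher and a median of -0.35. Spp1 (osteopontin) and Pigr were among the lower ones (log2 fold changes -1.27 and -1.69), and Mfge8, a milk fat globule protein gene that was lower in Aire KO (log2 fold change -0.72), was higher in Chd4 cKO (log2 fold change 1.11).

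The secretory calcium-binding phosphoprotein genes beyond the caseins numbered 13 in the tables. In the Aire comparison 5 were tested, with 4 lower and 1 higher by edgeR and 3 lower and 1 higher by DESeq2. Amtn and Ambn passed the filter through the WT libraries alone, so that the count is given without a reading. The lower ones, besides Amtn and Ambn, were the bone genes Ibsp (log2 fold change -2.36, adjusted p = 0.00663) and Spp1 (-1.29, adjusted p = 0.0270), and Sparcl1 was higher (1.22, adjusted p = 0.0121). In the Fezf2 comparison 9 were tested and 0 were called by edgeR or DESeq2, with 1 at an unadjusted p under 0.05 by either tool and a median of 0.05. In the Chd4 comparison 7 were tested, with 4 lower (Spp1, Sparcl1, Amtn and Ibsp) and a median of -1.27, and 0 were higher by edgeR or DESeq2, also at an unadjusted p under 0.05.

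Across the 12 Aire and Fezf2 libraries, the genes whose centred log2(CPM + 1) profile lay closest to that of the summed caseins, of which Csn2 makes up most, were Ciita, Gja4, Tmem18, Gas7, Ehd1, Sirt1, Kansl3 and Cpne2, among 17475 genes. The root mean square difference was 0.13 for Ciita, the regulator of MHC class II transcription, and 0.17 for Cpne2. Ciita averaged 344 CPM in Aire KO and 237 CPM in WT for Aire, and 119 CPM in Fezf2 KO and 165 CPM in WT for Fezf2 libraries. The profile of Csn1s2a lay closest to Bpifa5, Krt13, Gm5960, Pla2g1b, Gm5771, Tpsb2, I830127L07Rik and Bpifb3, with differences of 0.22 for Bpifa5 to 0.31 for Bpifb3. With a pseudocount of 0.5 in place of 1, Lypd2, Fgb and Mup4 took the places of Tpsb2, I830127L07Rik and Bpifb3. Krt13, a keratin gene of squamous epithelia, averaged 0 CPM in Aire KO and 15.8 CPM in WT for Aire, and 21.1 CPM in Fezf2 KO and 22.6 CPM in WT for Fezf2 libraries. No gene stood in both sets of 8, and these profiles share their libraries and depth.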

How the data were processed

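The 18 mTEC libraries were made with the SMART-seq v4 kit, per the labels' protocols. The authors deposited counts of total exon reads per gene, per the file headers, with exon lengths and positions. A deposited summary table holds the authors' log2 group means and their p-values and q-values. DESeq2 (no version) and the builds mm10 and GRCm38 are named in the submitters' processing notes. No source used here names the aligner, the use of strand or the handling of reads that match several places.

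Total exon read counts were tested as deposited with edgeR 4.0.16 (R 4.3.3): TMM scaling, filterByExpr with a minimum count of 10, glmQLFit and glmQLFTest, Benjamini-Hochberg over all genes tested, threshold 0.05. Differences between effects were tested over the 21875 gene IDs found in both annotations, after the same filter. DESeq2 1.42.0, RLE scaling, other filters, joint fits, other windows and leaving out each library were alternatives. The fit was tested on simulated data. The remaining 216 per-library columns of the 3 tables were not used. Library names A to C follow the barcodes in the column names. A count of 0 was bounded by 3 reads over the group, and intervals are exact at 95%. Per-length levels used the GENCODE M21 principal transcript. Sequences came from RefSeq, where 6 of the 8 members matched. Depth ran from 3571570 to 17220157 exon reads, so that 3 reads equal 0.176 to 0.844 CPM.

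The members and lists were chosen with earlier results of these data known. The text names all 8 members, the genes between the caseins, and called neighbours within 1000 kb of the caseins with the nearest tested gene. Within 250 kb of single members it names called neighbours only. It also names up to 6 called members of each list, and the 8 genes with the closest profile.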

Additional observations from a re-analysis of the deposited data

Results flagged for a closer look

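Effects of different deletions differed for the same gene by a test of the difference itself (edgeR's quasi-likelihood test with Benjamini-Hochberg adjustment, all 18 libraries). For the Fezf2 effect minus the Aire effect, the log2 differences were 3.33 for Csn1s1, 5.60 for Csn1s2a, -1.05 for Csn2 and 5.44 for Wap. For the Chd4 effect minus the Aire effect they were 3.18 for Csn1s1, 4.38 for Csn1s2a, -1.52 for Csn2 and 6.51 for Wap. For the Chd4 effect minus the Fezf2 effect they were -1.22 for Csn1s2a and -2.74 for Csn1s2b. The Wap values rest on 0 reads in Aire KO libraries and their size depends on the prior count. The Fezf2 minus Aire call of Wap was lost without any 1 Aire KO library or without Fezf2 KO A (adjusted p 0.0551 to 0.0608 by edgeR). Csn2 is the member whose 2 differences from the Aire effect run against those of Csn1s1, Csn1s2a and Wap.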

How the results depend on the processing

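The numbers of members called lower and higher in each comparison kept within 1.5 times their value under every alternative that was run. In the Chd4 comparison Csn1s2b was called lower as well under some of them by edgeR. Its adjusted p was 0.0367 without a filter, 0.0288 with at least 1 CPM in 3 libraries and 0.0266 with all 18 libraries fitted. It was 0.0290 without Chd4 control C and 0.0230 without Chd4 cKO B. Neighbour counts moved with the window. In the Aire comparison 2 were lower within 500 kb and 1 was higher within 2000 kb. In the Fezf2 comparison 1 was lower within 2000 kb, and 0 (500 kb) and 2 (2000 kb) were higher. In the Chd4 comparison 0 were higher within 500 kb. Signs turned for values near 0. On the log2 scale and with single libraries left out, Csn3 in the Aire comparison ran from -0.39 to 0.25 (0.25 without WT for Aire B, 0.04 without Aire KO B). Csn1s2a in the Fezf2 comparison ran from -0.34 to 0.0048 (without WT for Fezf2 B). The Chd4 minus Fezf2 difference of Csn3 ran from -0.41 (without WT for Fezf2 A) to 0.36, and was -0.04 without Chd4 control C. That of Csn1s1 ran from -0.38 to 0.10 (without Chd4 cKO A), and was 0.07 without Chd4 control B. The cause was not tested.

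Over all genes, the Fezf2 comparison called 981 lower and 1053 higher without WT for Fezf2 B, and 67 lower and 102 higher without Fezf2 KO B, against 376 and 389 with every library. The profiles of single caseins were added after the data were seen. No paired analysis was possible because the count columns carry barcodes and no replicate number. Depth limits Lalba, Glycam1 and Csn1s2b most.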
